A study of Mus musculus with 2 samples.

Results

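The clustered protocadherins are cell-surface cadherins encoded in an alpha, a beta and a gamma cluster that lie in a row on mouse chromosome 18. Members were the genes of the deposited gene table whose symbols start with Pcdha, Pcdhb or Pcdhg, and these were 57 of 32227 genes: 14 in the alpha, 22 in the beta and 21 in the gamma cluster. Their transcripts were examined in single-nucleus RNA-seq of whole retinas of C57 BL/6J mice at postnatal day 21, in 1 library labelled Cre- and 1 library labelled Tet tcKO. The Cre- library, labelled wild type, came from animals bred from Cre- parents. In Tet tcKO animals floxed alleles of Tet1, Tet2 and Tet3, the enzymes that oxidize methylated cytosine, were recombined by a Chx10-driven Cre-GFP transgene that acts in retinal progenitors and can be mosaic, so nuclei that escaped recombination may be present. Retinas of several animals were pooled in 2 dissociations for each genotype, the nuclei carry no mark of their pool, and each genotype therefore counted as 1 sample with no replicate.

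Clustered protocadherins are adhesion molecules that bind the same isoform on a neighbouring membrane. A neuron is known to express only some of the alternative members, chosen at their promoters with the help of DNA methylation, CTCF and cohesin, while the last members of the alpha and gamma clusters, called C-type, are expressed more constantly. In the retina the gamma members are known for the self-avoidance of starburst amacrine dendrites and for the survival of interneurons and retinal ganglion cells (RGCs).

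In the mouse assembly GRCm39 the alpha members span positions 37063237 to 37320716 of chromosome 18, the beta members 37397991 to 37657532 and the gamma members 37794846 to 37975014, all on the plus strand. Each alpha gene starts at its own large first exon and shares the last exons with all other alpha genes, and the gamma genes are built the same way, so that these gene models run into one another. The beta genes lie apart from one another, except that the models of Pcdhb9 and Pcdhb10 and those of Pcdhb21 and Pcdhb22 overlap. A 3′ kit was used, and the rule by which reads from the shared 3′ exons went to a member is not stated in the sources used here. Values of single alpha and gamma members are uncertain for that reason. Sums over a cluster do not depend on how reads were divided among its own members. If such reads were discarded instead, the alpha and gamma sums would be lower, and this was not tested. Levels are given as UMIs (unique molecules counted) per 1000000 UMIs of a population (CPM). Members are compared with each other by UMIs and after division by the exon length that no other member shares (own exon). Counts from a 3′ kit need not rise with exon length, so the order of members per kilobase is uncertain.

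The Cre- library held 7357 nuclei with 11510585 UMIs and the Tet tcKO library 6766 nuclei with 16590747 UMIs, with medians of 1107 and 1836.5 UMIs per nucleus and 1 barcode sequence in common. Photoreceptors gave 65.8% of Cre- and 44.7% of Tet tcKO UMIs, and mitochondrial genes 5.47% and 1.76%. Over all nuclei the median log2 ratio (Tet tcKO over Cre-) of the 15605 genes with 50 UMIs or more over both libraries was 0.14, so the values below should be read against that shift. All intervals are at 95% and cover counting error only, not animals or preparations, and no test between the genotypes was possible. In each annotated class the class's own markers stood above their level in the other nuclei of that library, but 3 of 15 rod and 4 of 9 bipolar clusters were led, among their 10 leading genes, more by markers of another class. These rod clusters held mostly Cre- nuclei and these bipolar clusters mostly Tet tcKO nuclei. In Cre- cones the cone markers summed to 1671 CPM against 1234 CPM in the other nuclei, a small difference. Rods and cones were therefore pooled for ratios, amacrine cells and RGCs were compared as annotated, and other classes are given by level. Fewer cells of a type and less RNA per cell cannot be told apart in sums over all nuclei.

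Together the members gave 9808 UMIs in Cre- (0.0852% of all UMIs) and 12871 in Tet tcKO (0.0776%). The gamma cluster was the most abundant in both libraries, and it was lower in Tet tcKO. Gamma members summed to 467 CPM (454 to 479) in Cre- and 376 CPM (367 to 386) in Tet tcKO, with a log2 ratio of -0.31 (-0.36 to -0.26). Alpha members summed to 253 CPM (243 to 262) and 247 CPM (240 to 255), with a log2 ratio of -0.03 (-0.10 to 0.04). Beta members summed to 133 CPM (126 to 140) and 152 CPM (146 to 158), with a log2 ratio of 0.20 (0.10 to 0.29). Against the median of all genes the gamma and alpha sums lay lower and the beta sum lay close to it. Of all member UMIs the gamma cluster gave 54.8% in Cre- and 48.5% in Tet tcKO, the alpha cluster 29.6% and 31.9%, and the beta cluster 15.6% and 19.6%.

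The clusters were used in different proportions by the cell classes. Alpha members were highest in RGCs, the output neurons of the retina, and gamma members were highest in Müller glia and bipolar cells. In Cre- the alpha sum was 428 CPM (393 to 467) in RGCs, 358 CPM (310 to 411) in amacrine cells, 291 CPM (267 to 317) in bipolar cells, 213 CPM (202 to 225) in rods, 201 CPM (174 to 230) in cones, 180 CPM (129 to 245) in Müller glia and 152 CPM (97.1 to 226) in horizontal cells. The intervals of RGCs and amacrine cells overlapped, as did those of amacrine and bipolar cells and those of the 4 lowest classes, while bipolar cells stood clear of rods. The gamma sum in Cre- followed another order, with 702 CPM (596 to 821) in Müller glia, 626 CPM (590 to 664) in bipolar cells, 495 CPM (453 to 540) in cones, 487 CPM (431 to 548) in amacrine cells, 438 CPM (422 to 455) in rods, 347 CPM (262 to 452) in horizontal cells and 328 CPM (297 to 362) in RGCs. RGCs were thus first for alpha and last for gamma. The beta sum in Cre- varied less, from 107 CPM (62.6 to 172) in horizontal cells and 116 CPM (108 to 125) in rods to 173 CPM (151 to 198) in RGCs, and of the other classes the interval of bipolar cells and that of RGCs lay above that of rods.

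**Figure D1:**
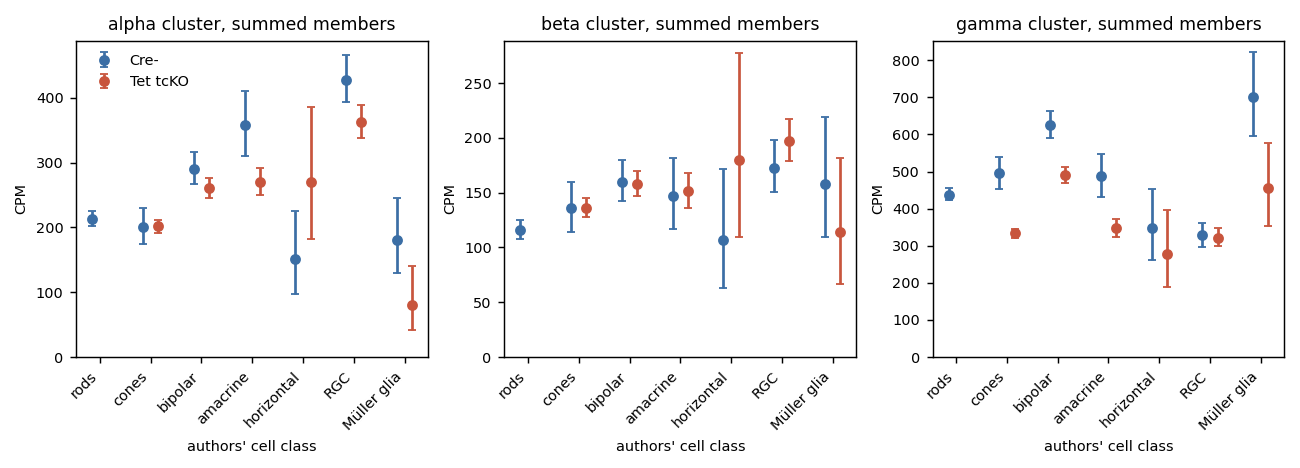
Summed CPM (UMIs per 1000000 UMIs) of the alpha, beta and gamma members in each annotated cell class, in Cre- (blue) and Tet tcKO (red), with exact 95% Poisson intervals of 1 library each. Tet tcKO rods (6 nuclei, 0 member UMIs) are not drawn. Alpha is highest in RGCs in both libraries, and gamma stands lower in Tet tcKO than in Cre- in cones, bipolar cells, amacrine cells and Müller glia, with intervals that do not overlap.

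The ratio of gamma to alpha UMIs within a class does not depend on the depth of that class. In Cre- it was 0.767 (0.672 to 0.874) in RGCs, 1.36 (1.13 to 1.64) in amacrine cells, 2.11 (1.99 to 2.24) in pooled photoreceptors, 2.15 (1.93 to 2.39) in bipolar cells and 3.90 (2.74 to 5.67) in Müller glia. In Tet tcKO it was 0.888 (0.800 to 0.985) in RGCs, 1.29 (1.16 to 1.43) in amacrine cells, 1.65 (1.55 to 1.76) in pooled photoreceptors, 1.88 (1.75 to 2.02) in bipolar cells and 5.67 (3.04 to 11.5) in Müller glia. The order of these classes was the same in both libraries, and only in photoreceptors did the intervals of the libraries not overlap among these 5. Within the RGC class the balance was not uniform. In Cre- the authors' clusters 8 and 2 held more alpha (417 and 438 CPM) than gamma (333 and 288 CPM), whereas cluster 31, with 58 nuclei, held 401 CPM of alpha from 34 UMIs and 507 CPM of gamma from 43 UMIs. RNA set free from broken cells gives all classes a like low share of a gene, and no retinal class is known to lack these genes. As a gauge, the 10 rod markers summed to 2339 CPM in Cre- RGCs and 980 CPM in Tet tcKO RGCs against 12165 and 6598 CPM in pooled photoreceptors. The part of such RNA in these ratios was not tested.

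Per kilobase of own exon, the members of each cluster differed widely in level. In alpha 3 members led and some others were close to absent. In Cre- the highest alpha members were Pcdha12 at 22.8 CPM per kb, the C-type Pcdhac2 at 22.1 and the C-type Pcdhac1 at 15.8. These were 3 neighbours at the downstream end of the cluster, and by UMIs they made up 22.1%, 27.5% and 16.0% of it. Of the other alpha members, Pcdha8 stood at 10.9, Pcdha7 at 6.63 and Pcdha5 at 4.44 CPM per kb in Cre-, and Pcdha1, Pcdha2, Pcdha4 and Pcdha10 at 0.382 to 0.556. In the gamma cluster Pcdhga12 led in Cre-, followed by Pcdhga5 at 17.6 CPM per kb, Pcdhgb6 at 15.7, Pcdhga1 at 15.0 and Pcdhga11 at 13.8, and these 5 were spread over the cluster from its first to its 18th member. The gamma C-type members were not the highest, with Pcdhgc4 at 7.58, Pcdhgc3 at 5.09 and Pcdhgc5 at 1.41 CPM per kb. Beta members were lower, and in Cre- Pcdhb17 at 7.33, Pcdhb22 at 3.78 and Pcdhb20 at 3.15 CPM per kb led them. Pcdhb1 had 0 UMIs in both libraries, which allows up to 3 UMIs in each as a one-sided limit. The sources used here do not state whether reads in introns were counted, and the gene models run from 44.3 to 257 kb in alpha, from 22.5 to 180 kb in gamma and from 2.59 to 16.2 kb in beta, so levels between clusters should not be ranked closely.

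**Figure D2:**
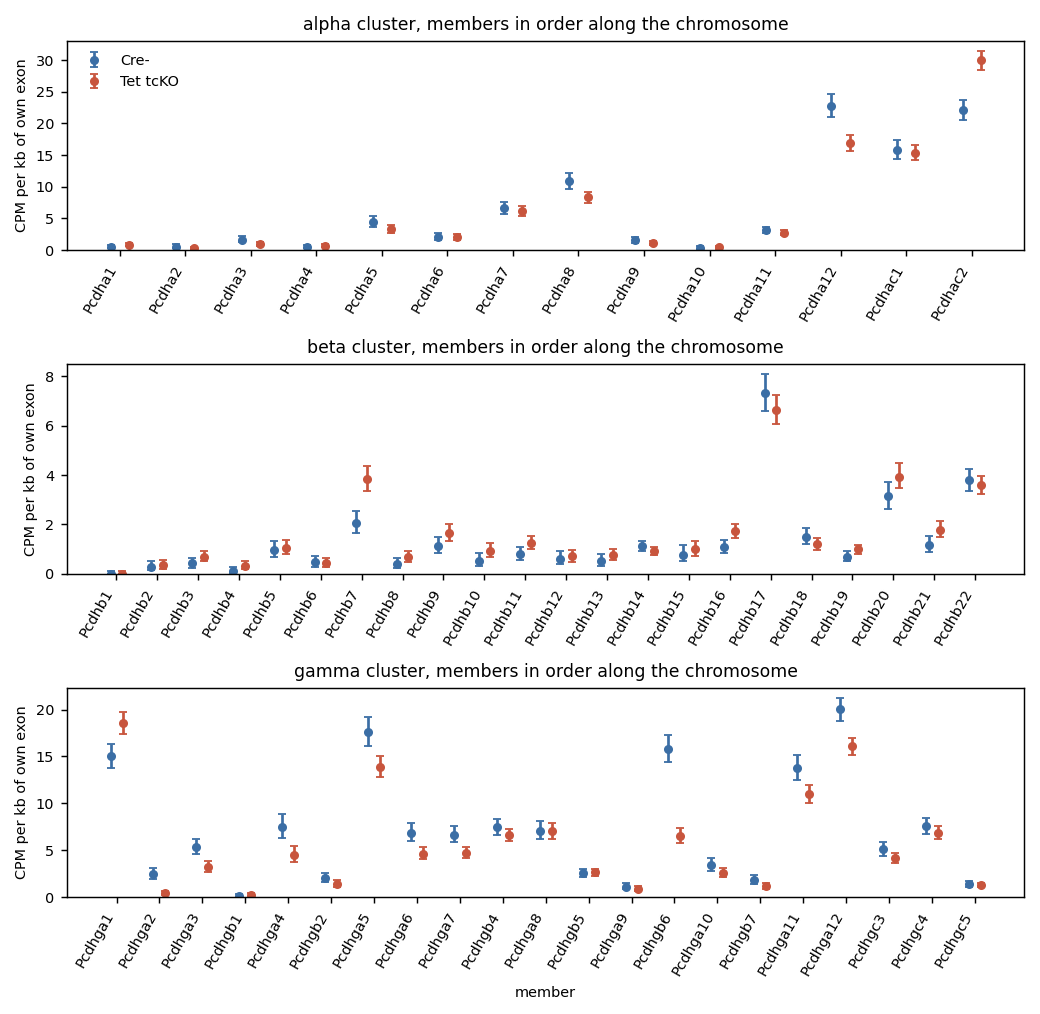
CPM per kb of own exon for each of the 57 members, in order along the chromosome in each cluster, in Cre- (blue) and Tet tcKO (red), with exact 95% Poisson intervals of 1 library each. Pcdha12, Pcdhac1 and Pcdhac2 stand above the rest of alpha and Pcdhb17 above the rest of beta, while Pcdhgb6 stands at 15.7 in Cre- and 6.55 in Tet tcKO.

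Members were next compared one by one between the libraries, over all nuclei. Of the 57 members, 48 had 50 UMIs or more over both libraries: 10 alpha, 18 beta and 20 gamma members. None of them was 2-fold or more higher in Tet tcKO, where 4.42% of all genes were, and 2 were 2-fold or more lower, where 3.11% of all genes were. At 1.5-fold, 7 members were higher, all of them beta, against 15.0% of all genes, and 6 were lower (1 alpha, 5 gamma) against 8.42% of all genes. The clusters differed in where their members lay. The median log2 ratio was -0.34 over the 20 gamma members, -0.31 over the 10 alpha members and 0.52 over the 18 beta members, against 0.14 for all genes. Below the lower quartile of all genes (-0.17) lay 15 of the 20 gamma, 6 of the 10 alpha and 2 of the 18 beta members, and above the upper quartile (0.42) lay 0, 1 and 10 of them.

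**Figure D3:**
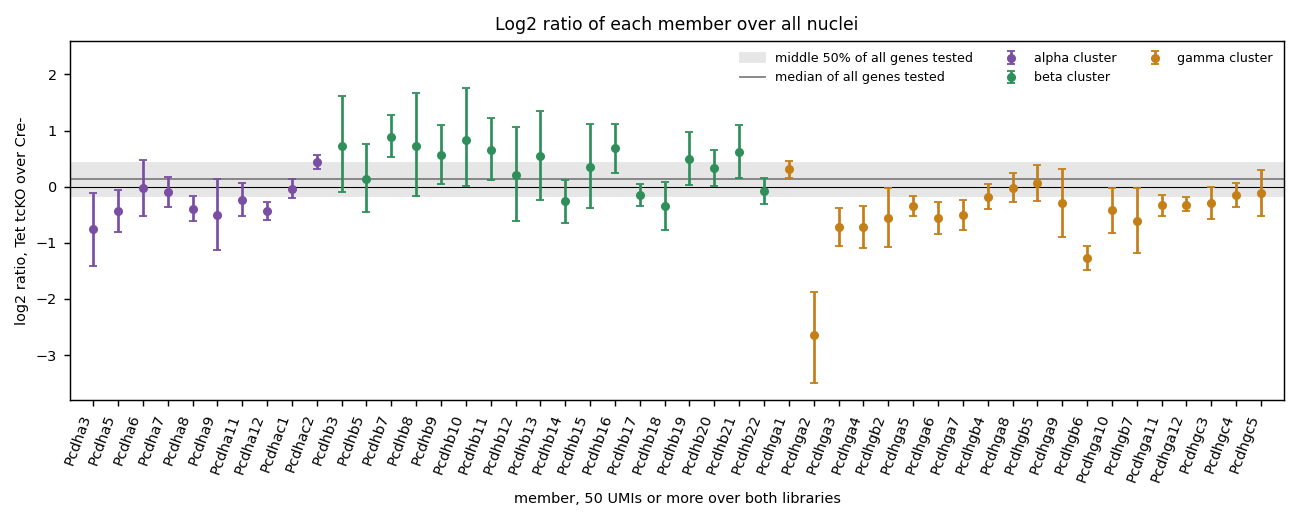
Log2 ratio of Tet tcKO over Cre- for the 48 members with 50 UMIs or more over both libraries, in order along the chromosome within each cluster, with exact 95% conditional intervals of the 2 libraries. The grey line and band are the median (0.14) and the middle 50% of all genes tested. Most alpha and gamma members lie below the band or in its lower part, most beta members lie above the line, and Pcdhga2 and Pcdhgb6 lie lowest.

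Pcdhga2 and Pcdhgb6, variable members of the gamma cluster, were the pair more than 2-fold lower. Pcdhgb6 (chromosome 18, 37875097 to 37975014) gave 474 UMIs in Cre- and 284 in Tet tcKO, or 41.2 CPM (37.6 to 45.1) and 17.1 CPM (15.2 to 19.2). Its log2 ratio was -1.27 (-1.48 to -1.05), and it was the 289th lowest of the 15605 genes. Pcdhga2 (37801946 to 37975014) gave 74 and 17 UMIs, or 6.43 CPM (5.05 to 8.07) and 1.02 CPM (0.597 to 1.64). Its log2 ratio of -2.65 (-3.50 to -1.87) was the 14th lowest of all genes, on few molecules. No nucleus held more than 4 UMIs of Pcdhgb6 or more than 2 of Pcdhga2, so neither difference came from a single nucleus. Pcdhga3 and Pcdhga4, the next A-type members downstream of Pcdhga2, followed with log2 ratios of -0.72 (-1.06 to -0.38) and -0.72 (-1.09 to -0.35). An antisense long noncoding RNA that overlaps exons of Pcdhgb6 and of 5 neighbouring members, Gm26672, had 71 and 52 UMIs and a log2 ratio of -0.98 (-1.52 to -0.44), and the strand setting of the counting is not known from the sources used here.

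The other abundant gamma members were lower by less. Pcdhga12, with the most UMIs of the cluster, stood at 91.0 CPM (85.5 to 96.6) in Cre- and 73.1 CPM (69.1 to 77.3) in Tet tcKO, with a log2 ratio of -0.32 (-0.44 to -0.19). Pcdhga5 stood at 45.2 and 35.6 CPM, with a log2 ratio of -0.34 (-0.52 to -0.17). Pcdhga1, the first member of the cluster, was the exception. It stood at 48.7 CPM (44.7 to 52.9) and 60.2 CPM (56.5 to 64.0), with a log2 ratio of 0.31 (0.16 to 0.46), the highest of the gamma members tested. Pcdhgb5 (11.8 and 12.3 CPM) and Pcdhga8 (17.9 and 17.7 CPM) came next, at 0.06 (-0.26 to 0.38) and -0.02 (-0.28 to 0.25). The C-type members had log2 ratios near the lower quartile of all genes, with -0.29 (-0.57 to -0.01) for Pcdhgc3 at 17.2 and 14.1 CPM, -0.15 (-0.36 to 0.07) for Pcdhgc4, the member known for neuronal survival, at 28.0 and 25.3 CPM, and -0.12 (-0.53 to 0.29) for Pcdhgc5 at 7.82 and 7.17 CPM.

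In the alpha cluster the C-type Pcdhac2 went the other way from its neighbours. It stood at 69.4 CPM (64.7 to 74.4) in Cre- and 94.1 CPM (89.5 to 98.9) in Tet tcKO, with a log2 ratio of 0.44 (0.31 to 0.56), and its share of alpha UMIs was 27.5% and 38.1%. Pcdha12 stood at 55.8 CPM (51.5 to 60.3) and 41.2 CPM (38.1 to 44.4), with a log2 ratio of -0.44 (-0.60 to -0.28). Pcdhac1 stood at 40.5 and 39.4 CPM, with a log2 ratio of -0.04 (-0.21 to 0.14). In CPM over all nuclei the alpha sum was close in both libraries, at a log2 ratio of -0.03 against a median of 0.14 for all genes. Pcdhac2 made up more of that sum in Tet tcKO. The lowest ratios after filtering were those of Pcdha3 (4.08 and 2.41 CPM) at -0.76 (-1.41 to -0.12) and Pcdha9 (3.91 and 2.77 CPM) at -0.50 (-1.12 to 0.13), both on few UMIs, and the second highest was that of Pcdha6 (5.21 and 5.12 CPM) at -0.02 (-0.52 to 0.48). The 4 alpha members under the filter had 11 to 34 UMIs in each library.

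The highest ratio in the beta cluster was that of Pcdhb7, which per kilobase of own exon stood at 2.06 CPM in Cre- and 3.82 in Tet tcKO, beside 3.78 and 3.58 for Pcdhb22. Pcdhb7 stood at 7.21 CPM (5.74 to 8.94) in Cre- and 13.4 CPM (11.7 to 15.3) in Tet tcKO, with a log2 ratio of 0.89 (0.52 to 1.27). Pcdhb10 (1.48 and 2.65 CPM) and Pcdhb3 (1.56 and 2.59 CPM) followed at 0.84 (0.01 to 1.75) and 0.73 (-0.10 to 1.61). The members with the most UMIs in Cre- had ratios close to 0, with Pcdhb17 at 34.1 CPM (30.8 to 37.7) and 30.9 CPM (28.2 to 33.7), with a log2 ratio of -0.15 (-0.34 to 0.05), and Pcdhb22 at 23.3 and 22.1 CPM, with a log2 ratio of -0.08 (-0.31 to 0.15). Pcdhb20 stood at 11.2 and 14.0 CPM, with a log2 ratio of 0.33 (0.01 to 0.65). Pcdhb18 (7.56 and 5.97 CPM) had the lowest ratio, -0.34 (-0.77 to 0.09), and Pcdhb14 (9.56 and 7.96 CPM) the second lowest, -0.26 (-0.64 to 0.11). The median of the members (0.52) was larger than the ratio of their sum (0.20), in which the members with the most UMIs weigh most.

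Photoreceptors gave the most UMIs and the clearest differences between members. The pooled population is not the same mixture in both libraries, since it held 5214 rod and 265 cone nuclei in Cre- and 6 rod and 3225 cone nuclei in Tet tcKO as annotated, so that genotype and annotated rod or cone identity cannot be told apart in it. In pooled photoreceptors gamma members summed to 446 CPM (431 to 461) in Cre- and 332 CPM (319 to 346) in Tet tcKO, with a log2 ratio of -0.42 (-0.50 to -0.35). Alpha members summed to 211 and 201 CPM, with a log2 ratio of -0.07 (-0.17 to 0.03), and beta members to 119 and 136 CPM, with a log2 ratio of 0.20 (0.07 to 0.33), where the median of the 13899 genes tested was 0.22. Of the 36 members with 50 UMIs or more there, 9 were 2-fold or more lower in Tet tcKO, where 3.01% of all genes were, and none was 2-fold or more higher, where 7.23% of all genes were. The 9 were 1 of 7 alpha (Pcdha8), 1 of 11 beta (Pcdhb14) and 7 of 18 gamma members (Pcdhga2, Pcdhga3, Pcdhga4, Pcdhga6, Pcdhga7, Pcdhgb6 and Pcdhga10). Without 2 rod clusters led by markers of red blood cells or RGCs, 10 members were lower, these 9 among them. When the libraries were scaled by TMM or median-of-ratios factors, 14 were lower with these 9 among them. These factors bring the median of all genes to 0.03 and 0.05, so they lower the ratio of every gene. The share of all genes that was 2-fold or more lower was not computed under these other settings. Pcdhb14 was no longer among the lower members when each gene counted at most once in a nucleus. Pcdhga2 was not among them in nuclei with 1000 UMIs or more, where 34 rather than 36 members passed the filter of 50 UMIs. The beta sum was at 0.01 and 0.03 with those factors.

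Pcdhgb6 showed the largest difference among the abundant members of photoreceptors. It stood at 37.5 CPM (33.3 to 42.1) in Cre- and 9.85 CPM (7.72 to 12.4) in Tet tcKO, with a log2 ratio of -1.93 (-2.32 to -1.55). Pcdhga2 stood at 7.26 and 1.08 CPM on 55 and 8 UMIs, a log2 ratio of -2.75 (-4.03 to -1.67). Pcdhga3 and Pcdhga6 had log2 ratios of -1.55 (-2.16 to -0.98) and -1.35 (-1.87 to -0.85). In contrast, Pcdhac2 stood at 68.6 CPM (62.9 to 74.8) and 111 CPM (104 to 119), with a log2 ratio of 0.70 (0.54 to 0.86), and Pcdhga1 at 58.7 CPM (53.4 to 64.5) and 92.2 CPM (85.4 to 99.4), with a log2 ratio of 0.65 (0.48 to 0.83). Pcdha12 stood at 50.4 CPM (45.5 to 55.7) and 27.3 CPM (23.6 to 31.3), with a log2 ratio of -0.89 (-1.14 to -0.64). The 3 gamma C-type members differed by less, with log2 ratios from -0.30 to -0.15.

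Cre- cones offered a side-by-side view of the annotated types within 1 genotype. In Cre-, rods held 37.9 CPM (33.3 to 42.9) of Pcdhgb6 and cones 34.9 CPM (24.4 to 48.3), both above the 9.86 CPM (7.73 to 12.4) of Tet tcKO cones. Pcdhga2 likewise reached 6.88 CPM (5.02 to 9.20) in rods of Cre-, 9.70 CPM (4.65 to 17.8) in cones of Cre- and 1.08 CPM (0.467 to 2.13) in Tet tcKO cones. For Pcdha8 the Cre- cones, at 8.73 CPM (3.99 to 16.6) from 9 UMIs, lay nearer to the 6.89 CPM (5.13 to 9.06) of Tet tcKO cones than to the 18.2 CPM (15.1 to 21.8) of Cre- rods. Pcdhga1 stood at 55.9 CPM (50.3 to 62.0) in Cre- rods, 76.6 CPM (60.6 to 95.5) in Cre- cones and 92.3 CPM (85.5 to 99.5) in Tet tcKO cones. Gamma members as a whole summed to 438 CPM (422 to 455) in Cre- rods, 495 CPM (453 to 540) in Cre- cones and 333 CPM (320 to 346) in Tet tcKO cones. Of the 9 members more than 2-fold lower in pooled photoreceptors, Pcdhga3, Pcdhga4 and Pcdhga6 also had Cre- cones near Cre- rods, at 13.6 against 13.4 CPM for Pcdhga3. Pcdhb14 (9.93 CPM in Cre- rods, 4.85 in Cre- cones, 4.46 in Tet tcKO cones), Pcdhga7 (17.1, 9.70 and 6.75 CPM) and Pcdhga10 (7.03, 2.91 and 2.70 CPM) had Cre- cones nearer to Tet tcKO cones, as Pcdha8 did, on 3 to 10 UMIs. For Pcdha8, Pcdhb14, Pcdhga7, Pcdhga10 and Pcdhga1 the interval of the Cre- cones overlapped both of the others. All Cre- cone values here, those of Pcdhgb6 and Pcdhga2 included, rest on 265 nuclei whose cone markers were little above those of the other nuclei.

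The authors' photoreceptor clusters with 100 nuclei or more, 15 in Cre- and 8 in Tet tcKO, were then listed as a description of spread, since clusters of 1 library are not replicates. Pcdhgb6 ranged from 10.7 to 54.3 CPM over the Cre- clusters, with a median of 36.3, and from 5.71 to 17.1 CPM over the Tet tcKO clusters, with a median of 9.41. In Cre- 1 cluster reached down into the Tet tcKO range and the others stood above it. Pcdhac2 ranged from 47.9 to 97.1 CPM, median 67.5, and from 76.9 to 152 CPM, median 108. Pcdha12 ranged from 38.8 to 63.3 CPM, median 51.0, and from 16.7 to 56.8 CPM, median 24.4, and 2 Tet tcKO clusters lay within the Cre- range. The gamma sum ranged over the Cre- clusters from 295 to 512 CPM, median 457, and over those of Tet tcKO from 294 to 392 CPM, median 339.

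**Figure D4:**
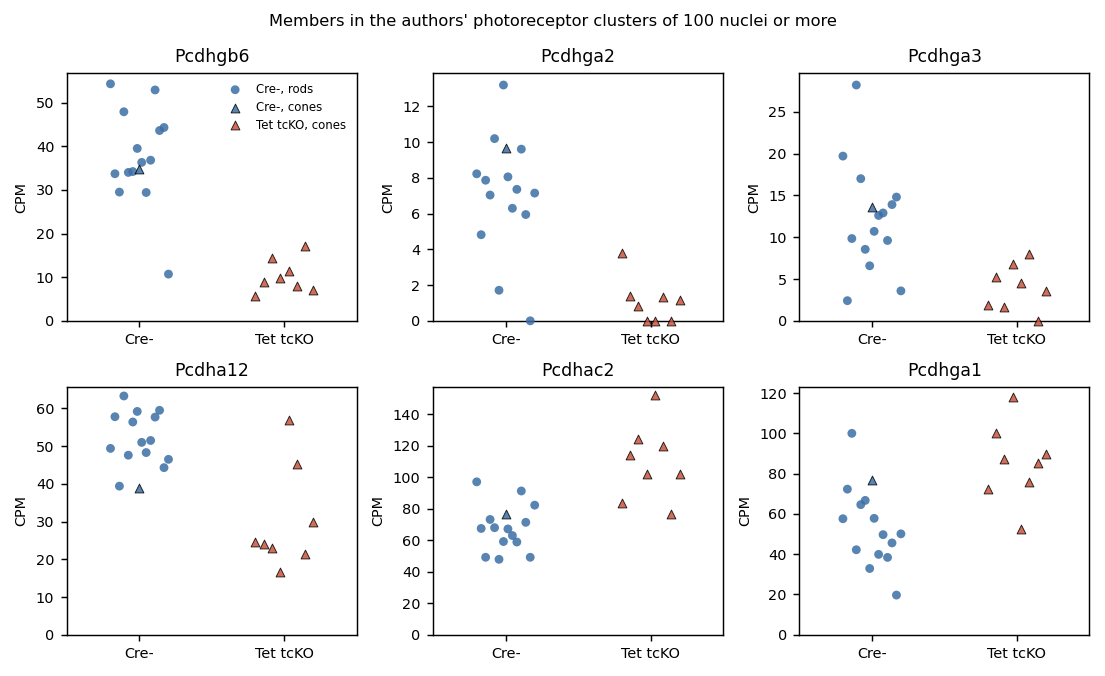
CPM of 6 members in each of the authors' photoreceptor clusters with 100 nuclei or more (circles, annotated rods, triangles, annotated cones) in Cre- (blue, 15 clusters) and Tet tcKO (red, 8 clusters). Pcdhgb6 spans 10.7 to 54.3 over Cre- clusters and 5.71 to 17.1 over Tet tcKO clusters, and Pcdhac2 from 47.9 to 97.1 and from 76.9 to 152.

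In amacrine cells, the inhibitory interneurons of the inner retina, alpha and gamma members were both lower. Gamma members summed to 487 CPM (431 to 548) in Cre- and 348 CPM (324 to 372) in Tet tcKO, with a log2 ratio of -0.49 (-0.69 to -0.28). Alpha members summed to 358 and 270 CPM (250 to 292), with a log2 ratio of -0.41 (-0.64 to -0.17), and beta members to 147 and 152 CPM, with a log2 ratio of 0.05 (-0.30 to 0.41). The median of the 8295 genes tested was 0.02. Of 17 members with 50 UMIs or more (5 alpha, 2 beta, 10 gamma), 2 were 2-fold or more lower, where 3.00% of all genes were, and none was 2-fold or more higher, where 4.59% of all genes were. These were Pcdhgb6, at 46.5 and 19.6 CPM with a log2 ratio of -1.25 (-1.97 to -0.49), and Pcdhga11, at 46.5 and 21.8 CPM with -1.10 (-1.80 to -0.36). Pcdhac2 stood at 71.6 and 67.9 CPM there, with a log2 ratio of -0.08 (-0.59 to 0.46). Different clusters made up the class, with cluster 27 holding 256 of 403 Cre- nuclei, while the Tet tcKO nuclei were spread over several clusters, of which cluster 12 was the largest with 357 of 1043. Cluster 13, with the highest level of cholinergic starburst markers, had 72 and 122 nuclei. Gamma members summed to 576 and 341 CPM in it, a log2 ratio of -0.76 (-1.23 to -0.28), and alpha members to 447 and 294 CPM, with a log2 ratio of -0.60 (-1.13 to -0.07). In cluster 24 gamma members were lower as well (505 and 326 CPM, -0.63, -1.21 to -0.02) while alpha members were at 270 and 296 CPM, on 35 Cre- nuclei. Rod markers summed to 3067 CPM in Cre- amacrine cells and 1348 CPM in Tet tcKO amacrine cells, and their part in these differences was not tested.

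RGCs differed from the other populations in their gamma sum. It was 328 CPM (297 to 362) in Cre- and 322 CPM (298 to 347) in Tet tcKO, with a log2 ratio of -0.03 (-0.21 to 0.15). This interval overlapped neither that of photoreceptors (-0.50 to -0.35) nor that of amacrine cells (-0.69 to -0.28), and a test of the difference between populations was not possible with 1 library per genotype. Alpha members summed to 428 and 363 CPM, with a log2 ratio of -0.24 (-0.40 to -0.08), and beta members to 173 and 197 CPM, with a log2 ratio of 0.19 (-0.06 to 0.43). None of the 18 members tested was 2-fold apart, where 2.09% of the 8489 genes were 2-fold or more higher and 1.70% were lower. Pcdha8 came nearest, at 64.2 CPM (50.8 to 80.0) and 33.8 CPM (26.4 to 42.5), with a log2 ratio of -0.93 (-1.41 to -0.45). Pcdhgb6 was again lower, at 33.3 and 18.8 CPM with a log2 ratio of -0.83 (-1.50 to -0.17), and Pcdhga12, lower in photoreceptors and amacrine cells, was at 70.7 and 88.6 CPM with 0.33 (-0.05 to 0.71). Most Cre- RGC nuclei lay in cluster 8 (394 of 567), while the largest Tet tcKO RGC cluster was cluster 31 (273 of 704). In cluster 2, present in both libraries with 111 and 185 nuclei, alpha members stood at 438 and 333 CPM (-0.39, -0.66 to -0.13) and gamma members at 288 and 291 CPM (0.01, -0.29 to 0.33). In cluster 31 gamma members stood at 507 and 390 CPM (-0.38, -0.86 to 0.14), so the RGC clusters were not alike in this.

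**Figure D5:**
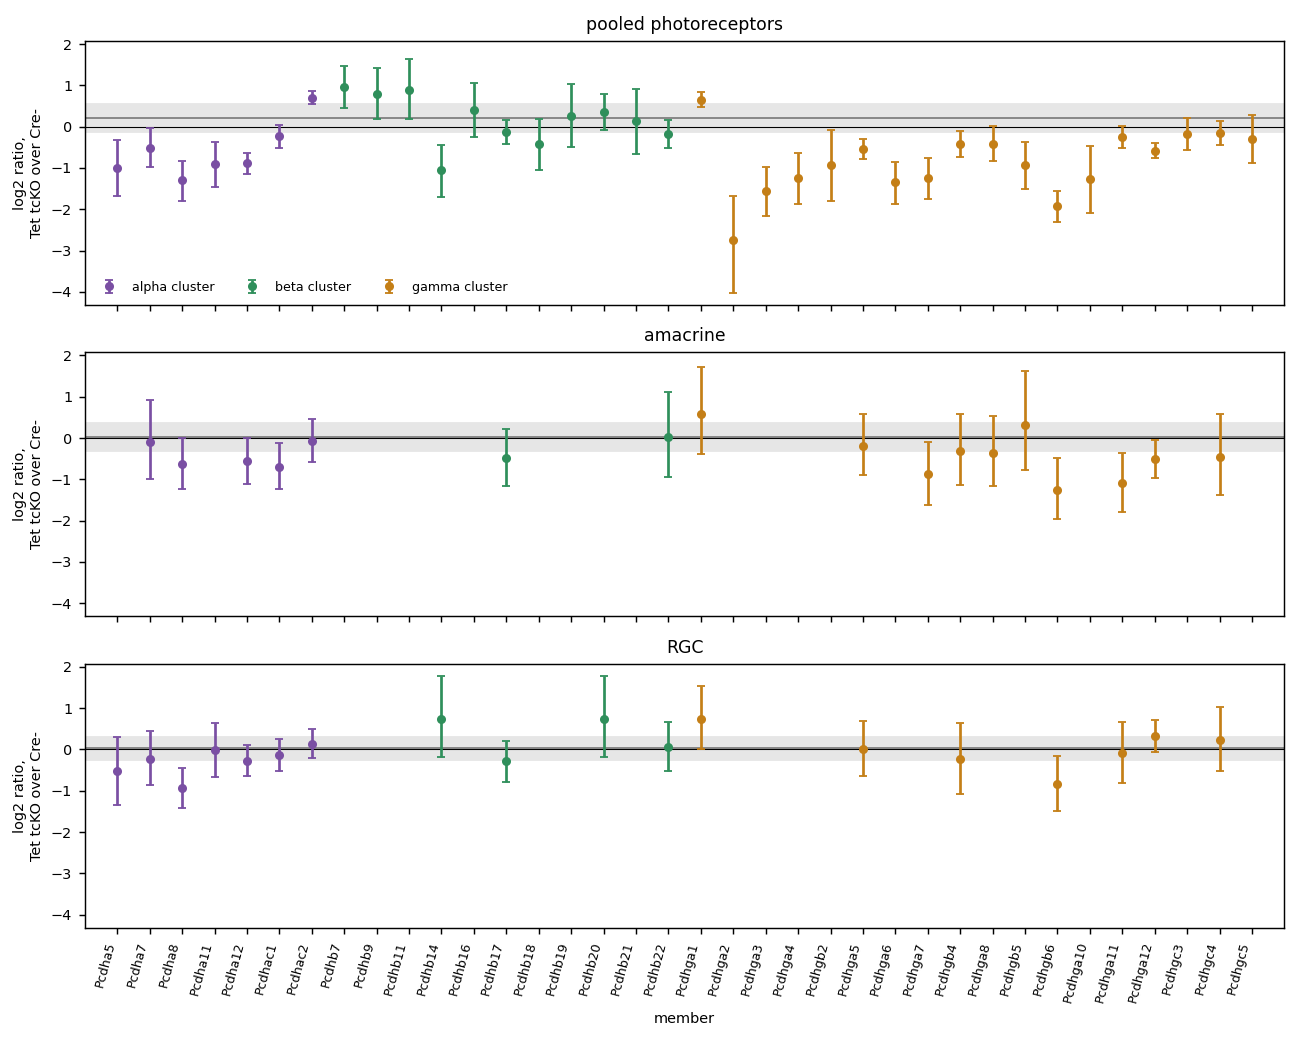
Log2 ratio of Tet tcKO over Cre- for members with 50 UMIs or more in pooled photoreceptors, amacrine cells and RGCs, with exact 95% conditional intervals of the 2 libraries and, in grey, the median and middle 50% of all genes tested in that population. Pcdhgb6 lies below 0 in all 3 (-1.93, -1.25 and -0.83), and Pcdhga1 lies above the band in all 3 (0.65, 0.59 and 0.74), with an interval that includes 0 in amacrine cells. Pcdhac2 lies above the band in photoreceptors at 0.70.

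Pcdhgb6 was therefore lower in Tet tcKO in each population in which it could be compared, and by level in bipolar cells. In Müller glia it was lower as well, but the intervals overlapped. The Tet tcKO bipolar class includes the 4 clusters led more by markers of another class, here a cone marker. It stood at 56.6 CPM (46.1 to 68.9) in Cre- and 27.2 CPM (22.6 to 32.5) in Tet tcKO bipolar cells, and at 85.5 CPM (51.5 to 134) and 26.8 CPM (7.30 to 68.6) in Müller glia, on 19 and 4 UMIs. Pcdhga1 had a ratio above 0 in each of the 3 compared populations. Beside its 0.65 in photoreceptors it stood at 17.9 CPM (8.59 to 32.9) and 26.9 CPM (20.7 to 34.4) in amacrine cells, with a log2 ratio of 0.59 (-0.39 to 1.72) on 10 and 63 UMIs, and at 17.1 CPM (10.6 to 26.1) and 28.6 CPM (21.9 to 36.7) in RGCs, with a log2 ratio of 0.74 (0.01 to 1.53) on 21 and 61 UMIs. The amacrine interval included 0. In bipolar cells Pcdhga1 was at 41.9 and 40.7 CPM and in Müller glia at 31.5 and 33.5 CPM.

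Single nuclei held few molecules of these genes. In Cre- 4600 of 7357 nuclei (62.5%) and in Tet tcKO 5094 of 6766 (75.3%) had a UMI of any member, at the medians of 1107 and 1836.5 UMIs given above. After each nucleus was thinned to 500 UMIs the shares were 32.9% (31.8 to 34.0) and 31.5% (30.4 to 32.6). A gamma UMI was left in 19.5% (18.6 to 20.4) of thinned Cre- nuclei and 17.4% (16.5 to 18.4) of thinned Tet tcKO nuclei, an alpha UMI in 11.8% and 10.9%, and a beta UMI in 5.99% and 7.01%. For gamma and beta these directions matched those of the sums, while the alpha sum had no clear direction. The thinned intervals overlapped for alpha (11.0 to 12.5 and 10.2 to 11.7) and for beta (5.46 to 6.56 and 6.41 to 7.64). The unthinned shares were higher in Tet tcKO for all 3 clusters. At most 11 different members were seen in a Cre- nucleus and 14 in a Tet tcKO nucleus, and the median was 1 in both. No class known to lack these genes was available to set a background for the shares.

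Where a nucleus held 2 or more UMIs of a cluster, the share of pairs from the same member was set beside that of pairs drawn from different nuclei of the same population. The within-nucleus share was the higher one in the Cre- populations and for beta, but not everywhere in Tet tcKO. In Cre- RGCs 23.2% of 423 alpha pairs within a nucleus were from 1 member, against 14.5% of pairs between nuclei, and in Tet tcKO RGCs 18.1% of 733 pairs against 16.5%. Without the C-type members these shares were 35.2% against 18.7% in Cre- RGCs and 20.6% against 19.2% in Tet tcKO RGCs. They rested on 56 same-member pairs of 159 from 71 Cre- nuclei and 52 of 253 from 94 Tet tcKO nuclei. Over all classes a nucleus held at most 6 UMIs of Pcdha8 in Cre- and 2 in Tet tcKO. The weight of single nuclei in these shares was not tested. Over all nuclei the ratio of the within to the between share without C-type members was 1.40 for alpha and 1.24 for gamma in Cre-, and 1.07 and 1.17 in Tet tcKO. With the C-type members the Tet tcKO alpha ratio was 0.994. The ratio was not lower in Tet tcKO in every class. For gamma in RGCs it was 1.43 in both libraries. For alpha without C-type members in bipolar cells it was 1.10 in Cre- and 1.24 in Tet tcKO. In Tet tcKO pooled photoreceptors the within-nucleus share was the lower one, with a ratio of 0.864 for alpha and 0.882 for gamma (12.1% against 13.7%). Without the C-type members the ratios there were 0.826 for alpha, on 11 same-member pairs of 56, and 0.884 for gamma. In Cre- pooled photoreceptors the shares over all members were 25.3% against 19.9% for alpha and 10.7% against 9.19% for gamma. Over all nuclei beta pairs were from 1 member in 21.4% against 12.3% in Cre- and in 17.2% against 9.58% in Tet tcKO, a ratio of 1.75 and 1.79. Pairs are not independent, since a nucleus with many UMIs gives many pairs, and these shares are a description with no interval. Whether they depend on the mix of cell types in a population, or on how reads from shared exons went to a member, was not tested.

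Other genes of the same biology were examined as lists over all nuclei, where the median of all genes was 0.14 and 4.42% of all genes were 2-fold or more higher and 3.11% lower. The delta protocadherins, single genes outside the clusters, were higher in Tet tcKO over all nuclei. Of 10, 9 had 50 UMIs or more, their median log2 ratio was 0.62, their range 0.44 to 1.01, and 1 was 2-fold higher. That gene was Pcdh19, at 29.2 and 58.8 CPM with a log2 ratio of 1.01 (0.83 to 1.19), and Pcdh9, the most abundant, stood at 1870 and 2537 CPM with 0.44 (0.42 to 0.46). By population the sizes differed. In pooled photoreceptors Pcdh9 was at 0.26, where the median of all genes was 0.22, and in RGCs Pcdh17 was at -0.11. The other ratios of this list in photoreceptors, amacrine cells and RGCs were positive where computed. The 13 chromatin regulators of the clusters had a median of -0.12, with none 2-fold apart. Ctcf, whose protein binds the member promoters, stood at 145 and 101 CPM, with a log2 ratio of -0.52 (-0.62 to -0.42). The cohesin genes differed among themselves, with Smc3 at -0.56 (-0.65 to -0.47), Smc1a at -0.51 (-0.62 to -0.40), Nipbl, the cohesin loader, at -0.42 (-0.47 to -0.36), Stag1 at 0.22 (0.16 to 0.29) and Rad21 at 0.15 (-0.02 to 0.31). Dnmt3b, a methyltransferase known to methylate member promoters, had 86 and 149 UMIs and a log2 ratio of 0.27 (-0.13 to 0.67), and Smchd1, a repressor of the clusters, stood at 181 and 146 CPM with -0.31 (-0.40 to -0.23). The 12 partners of the cytoplasmic domains had a median of 0.36, with the kinase gene Ptk2b highest at 0.99 (0.57 to 1.42), and none was 2-fold apart.

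Genes beside the clusters on the chromosome had ratios on both sides of 0. Among all genes the median was 0.14, and 4.42% were 2-fold or more higher and 3.11% lower. Of 13 neighbours, 11 had 50 UMIs or more, their median log2 ratio was -0.01, and none was 2-fold apart. They ranged from Taf7, a single-exon gene between the beta and gamma clusters, at 14.5 and 9.46 CPM with -0.62 (-0.94 to -0.29), to Hars, a transfer RNA synthetase gene upstream of alpha, at 27.6 and 53.2 CPM with 0.95 (0.76 to 1.14). Diaph1, on the far side of gamma, stood at 68.6 and 68.1 CPM with -0.01 (-0.14 to 0.12).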

How the data were processed

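Whole retinas were profiled with the PIPseq 3′ kit, 1 library per genotype. According to the study's methods and the labels, the authors processed reads with pipseeker 3.3.0 on GRCm39, removed ambient RNA with CellBender and filtered nuclei on transcripts and mitochondrial percent in Monocle3. The annotation release, the use of intron reads, the strand setting and the treatment of reads shared by genes are not given in the sources used here, and neither is a doublet step. The values of the deposited matrices are whole counts of UMIs for each gene in each nucleus, and 2 genes of the later annotation that carry member names were not analysed here. The deposited cell tables give counts of transcripts and genes, a mitochondrial percent, a size factor (a ratio to a constant), a cluster number and a cell type for each nucleus. The gene table deposited by the authors gives a mean signal per genotype, which was not used for levels, and a count of nuclei.

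UMIs of all nuclei of a population were added up and divided by its total per 1000000 (CPM). With 1 sample per genotype no test was run. Intervals at 95% are Poisson for levels, conditional binomial for ratios and Clopper-Pearson for shares, and cover counting error only. A ratio needed more than 3 UMIs in at least 1 library, a count of 0 being set to the floor of 3, and genes with 50 UMIs or more over both libraries were compared with all genes. Coordinates and exon lengths came from GENCODE vM39 on GRCm39. Sequences are not shown. Values are given for C-type members and, in each cluster, for the 3 members with the most UMIs and the 3 highest and 3 lowest ratios, and other members were named in classes and clusters after their values were seen. Members, marker lists and gene lists were chosen with earlier results of these data known. Shares were computed after thinning to 500 UMIs with seed 48. No doublet caller was run. The steps were tested on simulated data, where for all nuclei (15605 genes) 95.4% of intervals held the simulated ratio and 100% of 4-fold changes were recovered. The simulated counts were Poisson, as the intervals assume, so this checks the computation only. Spread between nuclei or animals and smaller changes were not simulated. Python 3.11.15, numpy 2.4.6, scipy 1.17.1, pandas 2.3.3 and R 4.3.3 with edgeR 4.0.16 (TMM factors of the counts only) were used. Alternatives changed the scaling, the nuclei, the filter and the fold.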

Additional observations from a re-analysis of the deposited data

Results flagged for a closer look

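In horizontal cells (cluster 18, 90 Cre- and 37 Tet tcKO nuclei) alpha members stood at 152 and 270 CPM on 24 and 30 UMIs, a log2 ratio of 0.83 (0.01 to 1.67), while in RGC cluster 2 the ratio was -0.39 (-0.66 to -0.13) and in amacrine cluster 13 it was -0.60 (-1.13 to -0.07). The direction was opposite and the difference was not tested. The deposited gene table counted more nuclei with a UMI than the deposited matrices hold for 56 of the 57 members, 24902 against 20986 in sum, a ratio of 1.19, and for all genes found in 100 nuclei or more the ratio was 1.15. The table's counts were not used for any level.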

How the results depend on the processing

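No paired analysis was possible because each genotype had 1 library, and for the same reason no replicate could be left out. Over the 12 cluster sums, 74 of 90 values under other settings stayed within the counting interval of the reported value, 16 moved outside it and 0 changed direction where the interval excluded 0. The median log2 ratio of all genes moved from 0.14 to 0.04 under TMM and 0.03 under median-of-ratios scaling over all nuclei, and from 0.22 to 0.03 and 0.05 in pooled photoreceptors. With these scalings the sums over all nuclei were -0.13 and -0.14 for alpha, 0.09 and 0.09 for beta and -0.41 and -0.42 for gamma. In pooled photoreceptors they were -0.26 and -0.24 for alpha, 0.01 and 0.03 for beta and -0.62 and -0.59 for gamma, so the beta difference there was no larger than that scaling. Over all nuclei the gamma sum was -0.37 with totals without the 13 mitochondrial genes, -0.26 when a gene counted at most once in a nucleus and -0.38 with class shares of UMIs as in Cre-, where the alpha sum was -0.14. For this weighting rods and cones were merged, since Tet tcKO held 6 rod nuclei. The 2 members 2-fold or more apart over all nuclei became 4 without the 5% of nuclei with the most UMIs, where Pcdhb7 and Pcdhb10 joined, 3 with a filter of 20 UMIs, where Pcdhb4 joined on 5 and 20 UMIs, 3 with class shares as in Cre-, 1 with a filter of 10 CPM, which removed Pcdhga2, and 13 at 1.5-fold. In pooled photoreceptors the 9 members became 14 under TMM and 14 under median-of-ratios scaling, all lower, and 8 to 11 under the 6 other settings. All settings of this photoreceptor count were chosen after the data were seen. Except at 1.5-fold over all nuclei, the share of all genes past the fold was not computed under the other settings, for either count. These counts therefore show only how the number of members moved. Pcdhb14 was lost with each gene counted at most once in a nucleus. Pcdhga2 was lost among nuclei with 1000 UMIs or more, where 34 rather than 36 members passed the filter of 50 UMIs. Of 200 values of 25 named members, 195 stayed within the counting interval. The difference in the share of nuclei with a UMI (Tet tcKO minus Cre-) was -1.41 percentage points after thinning and 12.8 without, and for gamma it was -2.02 and 8.58, since Tet tcKO nuclei were deeper. Depth limits single members, 9 of which had fewer than 50 UMIs, and with 1 library per genotype no difference was checked against animals.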

Other observations

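Alongside the members, 12 other genes of the deposited table lie within the spans of the clusters, and 1 of them was abundant. Gm10544, a long noncoding RNA antisense to the alpha genes near the downstream end of that cluster, gave 667 UMIs in Cre- and 407 in Tet tcKO, or 57.9 and 24.5 CPM, a log2 ratio of -1.24 (-1.42 to -1.06). It overlaps an exon of Pcdha11 and was more than 2-fold lower, where the alpha sum had a log2 ratio of -0.03. Gm38182, an RNA on the same strand as the gamma genes that overlaps their shared last exons, had 9.64 and 7.47 CPM and a log2 ratio of -0.37 (-0.75 to 0.02). Whether reads of these RNAs and of the members could be told apart depends on the strand setting of the counting, which the sources used here do not state. These genes were named after their values were seen.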
